A study of Mus musculus with 8 samples.

Results

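The Skint genes (selection and upkeep of intraepithelial T cells) were followed across the skin of 8 BALB/c mice. The 10 members, Skint1 to Skint7 and Skint9 to Skint11, were picked by symbol among the 22740 protein-coding genes listed, and all 10 were listed; the rule itself uses no measured value, but the set was proposed with earlier results of these data known. Of these, 7 carried enough reads to be tested, and 3 (Skint3, Skint4 and Skint9) gave 1 count in all over the 8 libraries. RNA-seq was performed on whole dorsal skin from 4 groups of 2 female mice, 6 to 8 weeks old and fed a low-fibre diet. Baseline control mice (baseline CTL, replicates 1 and 2) drank water without butyrate (vehicle) and had no allergen. Baseline butyrate mice (replicates 1 and 3) drank sodium butyrate at 400 mM, the short-chain fatty acid of the study, also with no allergen. Lesional CTL mice (replicates 4 and 5) drank water without butyrate. They had house dust mite (HDM) extract applied to the shaved back under an occlusive dressing, 4 times 15 µg over 2 weeks. Lesional butyrate mice (replicates 3 and 4) drank 400 mM butyrate for 2 weeks before and then throughout the same HDM exposure. Baseline and lesional mice carry different leading numbers in their labels, so that exposure and set of mice cannot be told apart. Whole skin also holds dermis, muscle and fat, so that fewer cells of a type and less RNA per cell cannot be told apart in any value given here.

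Skint proteins are butyrophilin-like molecules of the epithelial surface, with an immunoglobulin-like outer part and several membrane-spanning segments. Skint1, the founding member, is made by thymic epithelium and by keratinocytes and is needed in fetal life for the maturation of the gamma-delta T cells that later populate mouse epidermis, the dendritic epidermal T cells. These cells touch keratinocytes throughout adult life and take part in stress surveillance and wound repair. The roles of most other Skint proteins are less well known.

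The members lie in a single cluster on chromosome 4 (GRCm38, chr4:111919392-114245028), 2.33 Mb long, in which all 11 annotated protein-coding genes are Skint genes, the eleventh being Skint8. From one end to the other the order was Skint8, Skint7, Skint1, Skint4, Skint3, Skint9, Skint2, Skint10, Skint6, Skint5 and Skint11. Skint9, Skint10, Skint6 and Skint5 are on the minus strand and the others on the plus strand. Skint5 and Skint6 are the long members, with 59 and 49 merged exons and coding lengths of 4425 and 3720 bases. Their coding sequences were 88.5% identical over 3720 aligned bases. Skint10 and Skint11, which lie at a distance from each other with Skint6 and Skint5 between them, were 83.4% identical in coding sequence. Skint10 was closer to Skint9 (86.3%), and the closest pair of the family was Skint7 with Skint8 (90.5%). Of all 100-base words in its exons, 3.49% in Skint7, 2.95% in Skint8 and 0.45% in Skint11 also occurred in another gene, so words of that length were seldom shared. Words of 50 bases were shared more often: 8.11% in Skint8, 7.63% in Skint7, 5.09% in Skint6, 4.51% in Skint11, 3.97% in Skint5 and 2.11% in Skint2. The other genes had at most 0.49%. The study's methods do not state the read length.

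The 250 bases before the annotated start of Skint5, Skint6, Skint10 and Skint11 are shown because these are the members whose levels moved together across the mice. These members also form 2 pairs of relatives, though not the only close pairs of the family. The bases were read from the RefSeq promoter table (GRCm38.p6), which had an entry for all 10 members. They are those of the reference genome, not of BALB/c. Capitals mark the longest run that each window shares with its partner, Skint5 with Skint6 and Skint10 with Skint11. The windows are chr4:113999504-113999753 (Skint5), chr4:113286974-113287223 (Skint6) and chr4:112774862-112775111 (Skint10) on the minus strand, and chr4:114163134-114163383 (Skint11) on the plus strand, each written 5′ to 3′.
Skint5: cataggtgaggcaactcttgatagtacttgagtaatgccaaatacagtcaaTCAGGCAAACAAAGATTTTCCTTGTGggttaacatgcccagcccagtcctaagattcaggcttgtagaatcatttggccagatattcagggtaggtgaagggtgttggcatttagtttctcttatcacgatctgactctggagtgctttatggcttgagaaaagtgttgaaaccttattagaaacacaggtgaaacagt
Skint6: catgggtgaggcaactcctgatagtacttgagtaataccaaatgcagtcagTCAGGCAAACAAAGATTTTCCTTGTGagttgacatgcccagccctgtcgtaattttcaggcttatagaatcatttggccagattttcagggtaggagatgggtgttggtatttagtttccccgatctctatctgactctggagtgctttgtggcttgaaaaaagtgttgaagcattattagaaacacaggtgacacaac
Skint10: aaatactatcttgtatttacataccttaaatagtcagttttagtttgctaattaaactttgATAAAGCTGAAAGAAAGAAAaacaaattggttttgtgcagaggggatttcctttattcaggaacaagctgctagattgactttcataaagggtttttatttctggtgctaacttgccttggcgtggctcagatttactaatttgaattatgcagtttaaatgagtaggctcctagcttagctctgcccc
Skint11: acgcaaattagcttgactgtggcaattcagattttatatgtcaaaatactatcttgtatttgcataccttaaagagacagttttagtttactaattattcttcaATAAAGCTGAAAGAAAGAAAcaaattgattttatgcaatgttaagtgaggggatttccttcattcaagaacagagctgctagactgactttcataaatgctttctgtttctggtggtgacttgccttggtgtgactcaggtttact
The run was 26 bases long in the Skint5 and Skint6 windows, from base -199 to base -174 before the start in both. It was 20 bases long in the Skint10 and Skint11 windows, where it lay at -189 to -170 and at -146 to -127. Aligned over the window, Skint5 and Skint6 were 88.8% identical, and Skint10 and Skint11 were 88.8% identical over 197 aligned bases. The other pairs of the family ran from 53.2% (Skint4 with Skint5) to 76.1% (Skint2 with Skint5 and with Skint6). Short motifs were searched on both strands of the same 250 bases in all 11 genes. TGANTCA, the AP-1 motif, was in the Skint11 window alone, against 6.7% of 32851 upstream windows of the same length genome-wide. TATAAA was in the windows of Skint1, Skint2, Skint7, Skint8, Skint9 and Skint11 (12.4% of all windows). GATAA was in 7 of the 11 (22.6% of all windows) and CACCC in 5 of the 11 (52.0% of all windows). No motif was held by all of Skint5, Skint6, Skint10 and Skint11 and by no other gene of the family.

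Depth was 18004136 to 21085544 counts per library. Values are CPM, the count of a gene scaled to a common library size, after correction by TMM, the trimmed mean of M values, and 3 counts corresponded to 0.138 to 0.169 CPM. Baseline butyrate replicate 3 stood apart from the other 7 mice: its summed CPM of hair shaft and inner root sheath genes was 21856, against 13.3 to 21.1 elsewhere, and 3881 of 14317 genes with a mean of at least 1 CPM differed over 2-fold from its group mate, against 257 to 717 in the other groups. Its suprabasal keratinocyte genes summed to 4862 CPM, against 19668 CPM in its mate. As it also widens the spread that the fit shares over all groups, values without it are given beside the comparisons it touches. A gene was called changed by edgeR's quasi-likelihood test, fitted on all 8 mice and 15163 genes, at a false discovery rate (FDR) under 0.1 and a fold change over 2. Fold changes are log2 values with their standard error (SE). Nothing says that mice of a group were housed apart, and the p-values measure the spread between these mice. For a single gene compared by exact permutation, 2 mice against 2 allow no p below 0.333.

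At baseline, Skint10 was the most abundant member. Per kilobase of exon, the scale on which genes can be compared, its level in baseline CTL skin was 24.1 ± 2.37 CPM per kb (SD, n = 2). Skint11 (7.64 ± 0.373), Skint7 (7.27 ± 0.922) and Skint1 (7.0 ± 0.970) came next on this scale and did not differ beyond their spread. Skint6 (5.26 ± 0.929) and Skint5 (4.85 ± 0.706) also overlapped, and Skint2 was lowest of the detected members at 3.60 ± 0.810. In lesional CTL skin the order was different: Skint1 was highest at 9.46 ± 1.08 CPM per kb, followed by Skint2 (7.47 ± 0.0845) and Skint7 (7.44 ± 0.228), with Skint10 at 4.51 ± 2.90. Skint5 (1.27 ± 0.343), Skint6 (1.05 ± 0.295) and Skint11 (1.03 ± 0.799) were lowest and did not differ beyond their spread.

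The 3 members with almost no reads are neighbours. Skint4, Skint3 and Skint9 follow one another between Skint1 and Skint2, over 0.36 Mb (chr4:112072016-112433985), and no other protein-coding gene lies in that stretch. Skint3 and Skint9 were at 0 counts in every library, and Skint4 had 1 count, in baseline CTL replicate 2. At 0 counts a library still allows up to 3, which is at most 0.169 CPM in the shallowest case. Levels below that limit were not detectable at this depth. Reads of these BALB/c mice were aligned to the reference genome, and whether this stretch differs in the strain was not tested. Detected members lay on both sides of them, Skint1 at 23.2 and 19 CPM and Skint2 at 9.95 and 7.22 CPM in the baseline CTL mice.

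**Figure D1:**
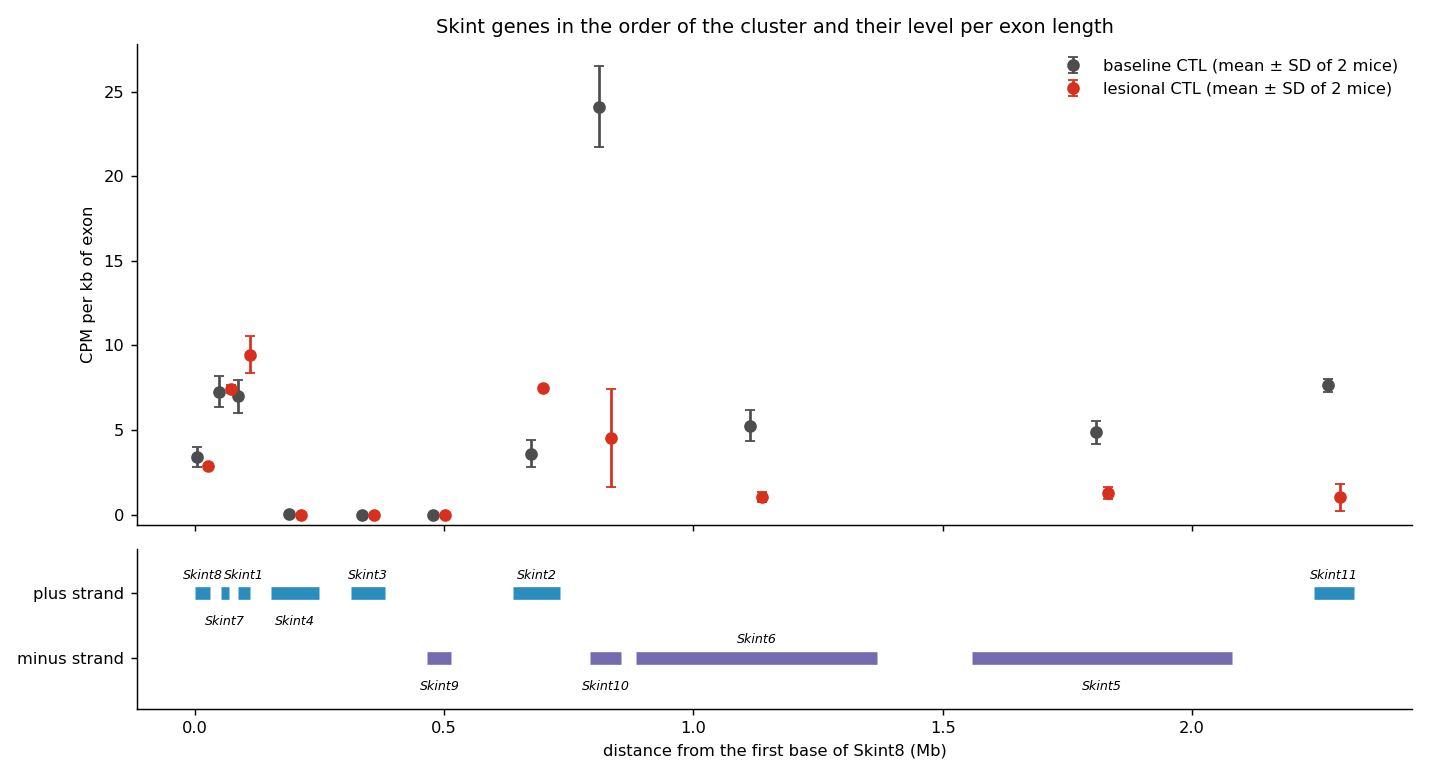
Upper panel, mean level in CPM per kb of exon (± SD of 2 mice) of the 11 Skint genes at the middle of each gene, in baseline CTL (grey) and lesional CTL skin (red, points offset sideways for legibility); lower panel, extent and strand of each gene by distance in Mb from the first base of Skint8. Skint10 stands at 24.1 CPM per kb in baseline CTL and 4.51 in lesional CTL, while Skint4, Skint3 and Skint9 lie at or near 0 in both.

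The comparison of lesional CTL with baseline CTL skin addresses what changes with repeated allergen exposure under a dressing. No group is labelled as having a saline patch, so allergen and patch cannot be told apart here. The paper cites earlier work in which a saline patch gave no overt skin inflammation. The members did not share a direction: Skint5, Skint6, Skint10 and Skint11 were lower in lesional CTL skin, Skint2 was higher, and Skint1 and Skint7 were 1.35-fold and 1.02-fold of baseline. No member passed the threshold by edgeR, against 3.58% of all genes tested, although 4 members (Skint2, Skint6, Skint10 and Skint11) had an unadjusted p under 0.05, as had 19.7% of all genes. The median log2 fold change was -1.94 over the 7 tested members and -0.02 over all genes.

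Skint10 was at 96.5 and 83.9 CPM in the baseline CTL mice and at 9.18 and 24.5 CPM in the lesional CTL mice. The groups did not overlap, and the lesional mean was 5.34-fold lower (log2 -2.42, SE 0.69, edgeR FDR 0.145). Skint11, its close relative, was at 11 and 10.3 CPM at baseline and at 0.641 and 2.22 CPM in lesional skin. It was the member with the largest difference, 7.35-fold lower (log2 -2.88, SE 0.91, edgeR FDR 0.173). In both genes lesional CTL replicate 4 was the lower of the pair and set the size of the difference. Without it the log2 value was -1.88 for Skint10 and -2.26 for Skint11, and without replicate 5 it was -3.30 and -4.04.

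Skint6 was at 22.6 and 17.6 CPM in baseline CTL skin and at 3.20 and 4.80 CPM in lesional CTL skin, 5.01-fold lower (log2 -2.32, SE 0.74, edgeR FDR 0.175). Skint5, the other long member, was at 24.6 and 20.0 CPM at baseline and at 4.70 and 6.92 CPM in lesional skin, 3.83-fold lower (log2 -1.94, SE 0.83, edgeR FDR 0.267). Neither gene's groups overlapped.

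Skint2 went the other way. It was at 9.95 and 7.22 CPM in baseline CTL skin and at 17.7 and 18 CPM in lesional CTL skin, 2.07-fold higher (log2 1.05, SE 0.28, edgeR FDR 0.123), with no overlap. Skint1, which is needed for the maturation of epidermal gamma-delta T cells, was at 23.2 and 19 CPM at baseline and at 30.8 and 26.2 CPM in lesional skin. The groups did not overlap, but the difference was about the size of its error (log2 0.43, SE 0.44, edgeR FDR 0.592). Skint7, at 31.6 and 26.4 CPM against 29.0 and 30.3 CPM, overlapped between the groups (log2 0.03, SE 0.61, edgeR FDR 0.982).

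In all, 4 of the 7 tested members lay below baseline without overlap, as did 38.5% of all genes tested, and 2 lay above, as did 36.7% of all genes. These backgrounds are high, and a lack of overlap between 2 mice and 2 is no mark of the Skint genes. The calls depended on which mice set the spread. With the 4 compared mice alone, 5 members (Skint2, Skint5, Skint6, Skint10 and Skint11) were called, beside 12.9% of all genes, and the same 5 were called when baseline butyrate replicate 1 (12.3% of genes) or replicate 3 (12.5% of genes) was left out. DESeq2 on all 8 mice called 4 of them (Skint2, Skint6, Skint10 and Skint11; 7.21% of genes), and limma-voom called none.

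**Figure D2:**
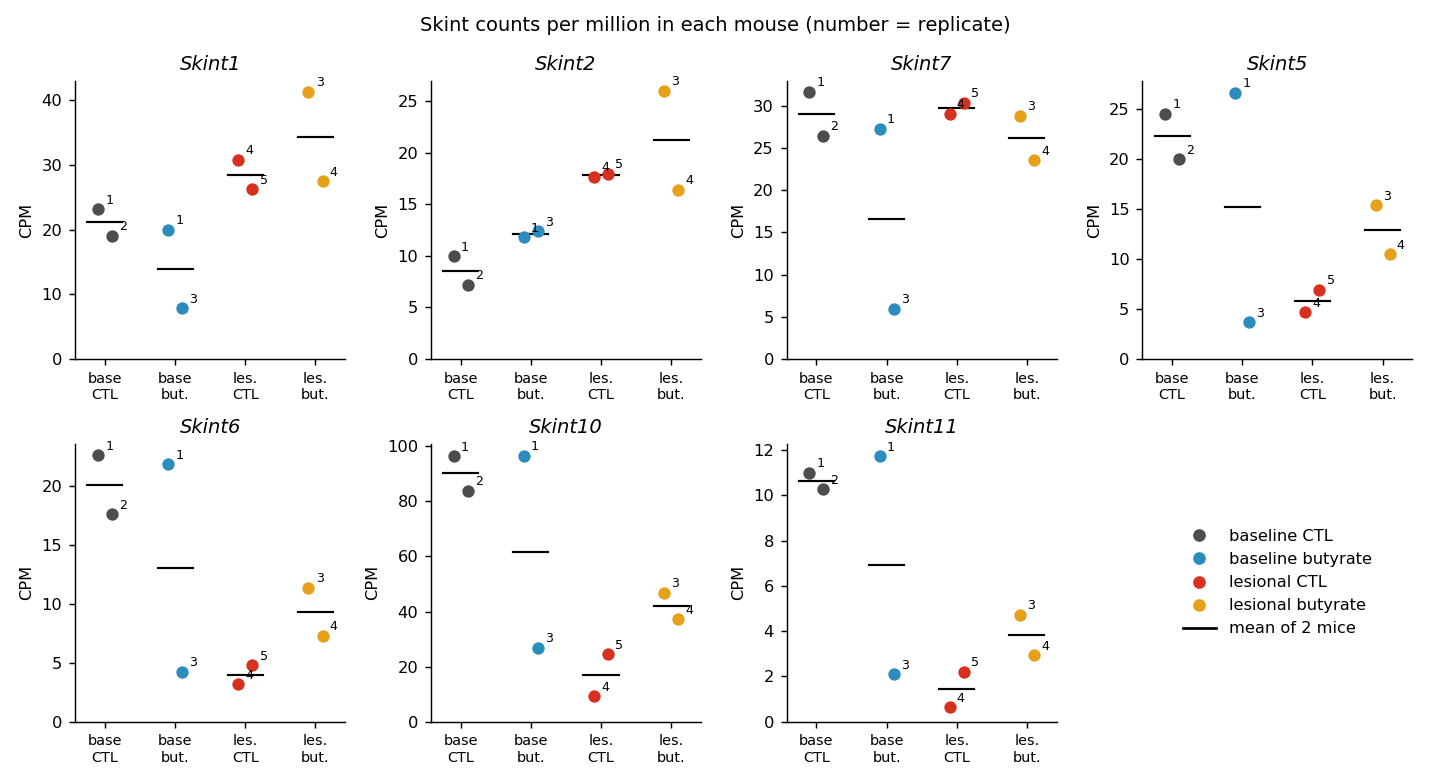
CPM of the 7 tested Skint genes in each of the 8 mice, 1 panel per gene with its own axis from 0; points are mice, numbered by replicate, and black lines are means of 2 mice. Skint5, Skint6, Skint10 and Skint11 are low in the lesional CTL mice and in baseline butyrate replicate 3, with the lesional butyrate mice between these and baseline CTL, whereas Skint2 is lowest in baseline CTL.

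Next, lesional butyrate skin was compared with lesional CTL skin, which addresses what butyrate changes under allergen exposure. The members that were low in lesional CTL skin were at higher values in the lesional butyrate mice, but none passed the threshold. The paper reports genes that passed the same thresholds in this comparison by limma-voom. EdgeR called 0 members, and 0% of all genes, here. In that fit on all 8 mice no member had an unadjusted p under 0.05, and limma-voom and DESeq2 also called no member, with 1 (Skint10) at an unadjusted p under 0.05 by DESeq2. The median log2 fold change was 1.15 over the 7 members and -0.01 over all genes.

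Skint10 was at 46.9 and 37.3 CPM in lesional butyrate skin against 9.18 and 24.5 CPM in lesional CTL skin (log2 1.32, SE 0.67, edgeR FDR 1). Skint11 was at 4.72 and 2.93 CPM against 0.641 and 2.22 CPM (log2 1.4, SE 0.89). Skint6 was at 11.4 and 7.30 CPM against 3.20 and 4.80 CPM (log2 1.22, SE 0.73). Skint5 was at 15.4 and 10.5 CPM against 4.70 and 6.92 CPM (log2 1.15, SE 0.82). In each of these 4 genes both butyrate mice were above both control mice, as in 22.4% of all genes tested, and the difference was less than 2 SE in the fit on all 8 mice. That SE includes the spread of the baseline butyrate pair, which is not compared here. Without baseline butyrate replicate 3 the values were about the same with a smaller error: log2 1.15 (SE 0.27) for Skint5, 1.21 (SE 0.30) for Skint6, 1.31 (SE 0.41) for Skint10 and 1.39 (SE 0.51) for Skint11. With the compared mice alone, 3 of the 4 (all but Skint11) had an unadjusted p under 0.05 by edgeR. The share of all genes at such a p in that fit is not given here, so this count has no background. No member was called in either fit, beside 0.168% of all genes called with the compared mice alone. The size again rested on the lesional CTL mice: without replicate 4, Skint10 was at log2 0.78 and Skint11 at 0.79, and without replicate 5 at 2.20 and 2.57.

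The same 4 genes stayed below the baseline CTL mice in both lesional butyrate mice. Relative to the baseline CTL mean, the lesional butyrate mean was 58.1% for Skint5, 46.4% for Skint6, 46.7% for Skint10 and 36.0% for Skint11. The lesional CTL means were 26.1%, 19.9%, 18.7% and 13.4% of the baseline CTL mean for the same genes.

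Skint1 was at 41.3 and 27.4 CPM in the lesional butyrate mice and Skint2 at 26.0 and 16.4 CPM. Both overlapped with lesional CTL (log2 0.27, SE 0.44 for Skint1; log2 0.25, SE 0.27 for Skint2). Skint7 was at 28.8 and 23.5 CPM and was the 1 member lying below lesional CTL without overlap, as 22.5% of all genes did, by less than its error (log2 -0.18, SE 0.61).

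**Figure D3:**
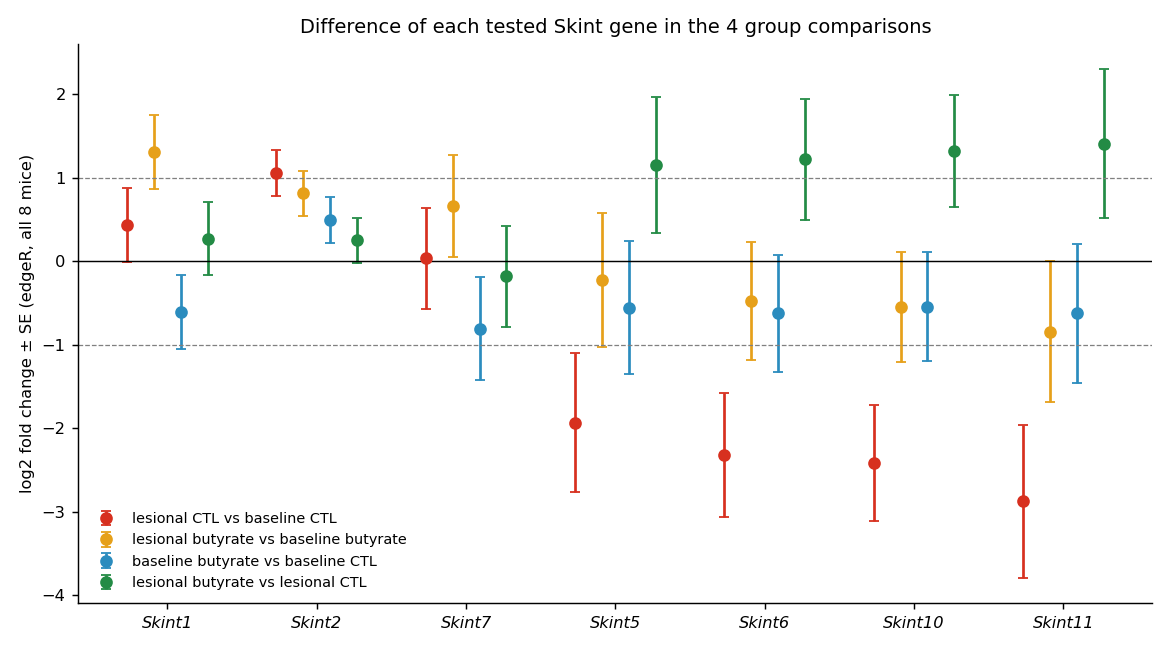
Log2 fold change ± SE from the edgeR fit on all 8 mice for the 7 tested members in 4 comparisons; dashed lines mark 2-fold. In lesional CTL against baseline CTL, Skint5, Skint6, Skint10 and Skint11 lie between -1.94 and -2.88, and in lesional butyrate against lesional CTL between 1.15 and 1.4.

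Butyrate without allergen gave no common value in the members, because its mice differed from each other. Skint10 was at 96.6 CPM in baseline butyrate replicate 1 and at 26.9 CPM in replicate 3, against 96.5 and 83.9 CPM in baseline CTL. The same split was seen in Skint5 (26.7 and 3.67 CPM), Skint6 (21.9 and 4.24 CPM), Skint7 (27.3 and 5.95 CPM) and Skint11 (11.7 and 2.10 CPM), and Skint1 was at 20.0 and 7.81 CPM. Replicate 1 was within the range of 94.0% to 137% of the baseline CTL mean for the 7 members, whereas replicate 3 was at 16.5% to 37.0% of it for all but Skint2. Skint2 was at 11.8 and 12.4 CPM, above both baseline CTL mice (9.95 and 7.22 CPM) in both, as 13.8% of all genes were; no member lay below, as 15.9% of genes did.

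EdgeR called no member here and 0% of all genes; no member had an unadjusted p under 0.05 and neither limma-voom nor DESeq2 called one (FDR by edgeR 0.714 to 0.783). Without baseline butyrate replicate 1, so with replicate 3 alone in its group, 6 members were called lower (all but Skint2), beside 24.1% of all genes. Without replicate 3, no member was called, and Skint5 (log2 0.26), Skint6 (0.12), Skint10 (0.10) and Skint11 (0.14) turned from lower to higher. Replicate 3 is the mouse with high hair shaft genes and low suprabasal genes; the part of either in its Skint values was not tested.

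Lesional butyrate skin was also set against baseline butyrate skin. Skint1 was higher in both lesional mice (41.3 and 27.4 CPM against 20.0 and 7.81 CPM; log2 1.31, SE 0.45, edgeR FDR 0.312), as was Skint2 (26.0 and 16.4 CPM against 11.8 and 12.4 CPM; log2 0.81, SE 0.27, edgeR FDR 0.306). These 2 members had an unadjusted p under 0.05, as had 13.1% of all genes, and lay above without overlap, as did 15.7% of all genes, while none lay below (16.9% of genes). EdgeR called no member against 0.35% of all genes, limma-voom called none, and DESeq2 called Skint1 alone, beside 4.6% of all genes. Without baseline butyrate replicate 3 the difference in Skint1 was smaller (log2 0.79, SE 0.28, edgeR FDR 0.137), and that in Skint2 was 0.85 (SE 0.33, edgeR FDR 0.156). Skint5 (log2 -0.23), Skint6 (-0.48), Skint10 (-0.55) and Skint11 (-0.85) differed from 0 by no more than about their SE. Without that mouse, Skint5 and Skint6 were called lower, beside 5.94% of all genes, and without replicate 1, Skint1, Skint5, Skint6 and Skint7 were called higher, beside 19.1% of all genes, so that the direction for Skint5 and Skint6 rested on which of the baseline butyrate mice was kept.

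The test of whether the butyrate difference was itself different in lesional and baseline skin called no member and 0% of all genes by edgeR, none by limma-voom or DESeq2, and none had an unadjusted p under 0.05 by edgeR. Its log2 values were 2.03 for Skint11, 1.87 for Skint10, 1.84 for Skint6 and 1.71 for Skint5, and ran from -0.24 to 0.88 in the other 3 (edgeR FDR at least 0.84). Without baseline butyrate replicate 3 it called no member and no gene, and the values were 1.25 for Skint11, 1.21 for Skint10, 1.09 for Skint6, 0.89 for Skint5 and 0.35 for Skint1. Without replicate 1, which leaves the mouse that stood apart as its whole group, it called 6 members (all but Skint2), beside 20.9% of all genes.

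Within a library, the balance between members does not depend on depth or scaling. The grouping used here, Skint5, Skint6, Skint10 and Skint11 against Skint1, Skint2 and Skint7, was chosen after the values were seen and is given with no test. Their summed CPM stood in a ratio of 2.39 and 2.5 in baseline CTL, 2.66 and 1.41 in baseline butyrate, 0.229 and 0.516 in lesional CTL, and 0.816 and 0.861 in lesional butyrate skin. All 4 baseline mice were above 1 and all 4 lesional mice below it, including the baseline butyrate mouse that stood apart. Skint10 was the largest part of the first sum in every mouse. Set alone against the second sum, Skint6, Skint10 and Skint11 each kept baseline above lesional mice, but Skint5 did not. Skint5 was at 3.67 CPM beside 26.2 in baseline butyrate replicate 3 and at 10.5 beside 67.4 in lesional butyrate replicate 4. For single genes, Skint1 was 0.240 and 0.227 of Skint10 in baseline CTL and 3.35 and 1.07 of it in lesional CTL.

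Keratinocyte layers differed between the mice alongside the members. Of 10 tested suprabasal keratinocyte genes (differentiated cells above the basal layer), 8 were lower in lesional CTL than in baseline CTL skin, and 1, the desmosomal cadherin Dsg1a, was called lower (log2 -1.24, edgeR FDR 0.0738). All 10 were at higher values in lesional butyrate than in lesional CTL skin, and none was called. The summed suprabasal level was 20885 and 19379 CPM in baseline CTL, 19668 and 4862 in baseline butyrate, 5679 and 7395 in lesional CTL, and 18679 and 14324 in lesional butyrate skin. The 3 mice with the lowest sums of Skint5, Skint6, Skint10 and Skint11 were also the 3 lowest in suprabasal genes. Basal keratinocyte genes summed to 8442 to 14043 CPM over the 8 mice, lowest in baseline butyrate replicate 3, with 0 of 8 called between lesional and baseline CTL skin by edgeR. Of 6 injury-induced keratinocyte genes, 5 were called higher in lesional CTL than in baseline CTL skin, with sums of 11014 and 7000 CPM against 1171 and 1024 CPM. Krt16, a keratin of wounded and hyperproliferative epidermis, was among them (log2 5.03, edgeR FDR 0.00725). Skeletal muscle genes, which come from below the skin proper, were lower in 6 of 6 in the same comparison with none called by edgeR, and summed to 31025 and 40713 CPM in baseline CTL against 13952 and 20592 CPM in lesional CTL skin; their part in the Skint values was not tested.

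Set per 1000 CPM of suprabasal genes, Skint5, Skint6, Skint10 and Skint11 together came to 7.41 and 6.80 CPM in baseline CTL, 7.97 and 7.58 in baseline butyrate, 3.12 and 5.20 in lesional CTL, and 4.2 and 4.05 in lesional butyrate skin. On this scale baseline butyrate replicate 3 was with the other baseline mice, and the lesional butyrate mice were within the range of the lesional CTL mice. For the sum, all 4 lesional mice remained below all 4 baseline mice. Skint10 was its largest part, with 96.5 of 154.7 CPM in baseline CTL replicate 1 and 26.9 of 36.9 CPM in baseline butyrate replicate 3. Skint6, Skint10 and Skint11 each kept this split, but Skint5 did not. Skint5 was at 3.67 CPM beside 4862 suprabasal CPM in baseline butyrate replicate 3, and at 6.92 beside 7395 in lesional CTL replicate 5. Per 1000 CPM of basal keratinocyte genes the sum did not split baseline from lesional mice. It came to 11.4 and 10.3 CPM in baseline CTL, 13.8 and 4.37 in baseline butyrate, 1.27 and 3.11 in lesional CTL, and 5.63 and 4.13 in lesional butyrate skin. There, baseline butyrate replicate 3 lay between the lesional butyrate mice, and both of these lay above both lesional CTL mice. The position of replicate 3 and of the lesional butyrate mice thus depended on which layer the members were set against, and the part of epidermal makeup in the Skint values was not otherwise tested.

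**Figure D4:**
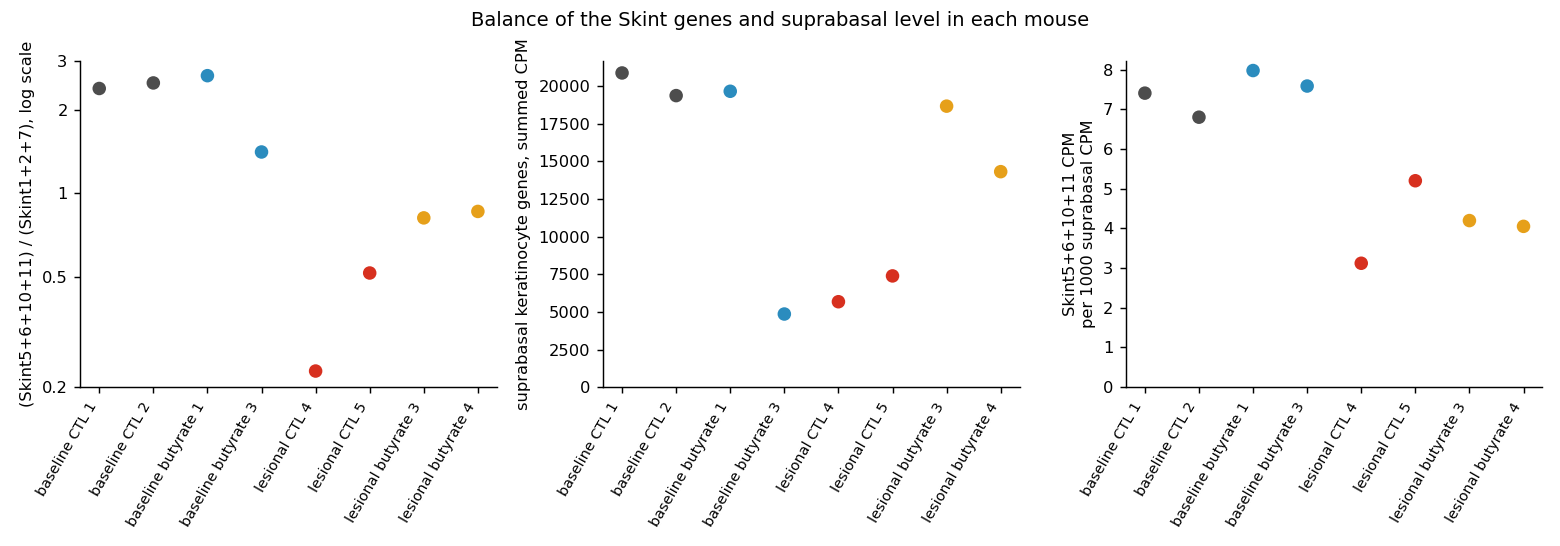
For each of the 8 mice, the ratio of summed Skint5, Skint6, Skint10 and Skint11 to summed Skint1, Skint2 and Skint7 CPM (left, log axis), the summed CPM of suprabasal keratinocyte genes (middle) and the first of these sums per 1000 suprabasal CPM (right); colours mark the groups named on the horizontal axis. The ratio is 1.41 to 2.66 in the 4 baseline mice and 0.229 to 0.861 in the 4 lesional mice, and the right panel is 6.80 to 7.97 against 3.12 to 5.20.

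Across the 8 mice, the members fell into those that varied together and those that did not. The 6 pairs among Skint5, Skint6, Skint10 and Skint11 had Pearson r of 0.897 to 0.995 on log2 CPM, highest for Skint10 with Skint11 (0.995), then Skint5 with Skint6 (0.972). The 12 pairs that joined one of these with Skint1, Skint2 or Skint7 had r of -0.562 to 0.581, and Skint2 was negative with all 4. Skint1 with Skint7 had r of 0.864 but a Spearman rho of 0.429. Over the 7 libraries without baseline butyrate replicate 3, the 6 pairs had r of 0.977 to 0.997 and the 12 pairs -0.617 to 0.011. Skint1 with Skint7 was then at 0.135, and Skint1 with Skint2 at 0.914 against 0.559 over all 8. These are descriptions over 8 libraries that share 4 groups and include the mouse that stood apart, so that differences between groups enter every value.

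**Figure D5:**
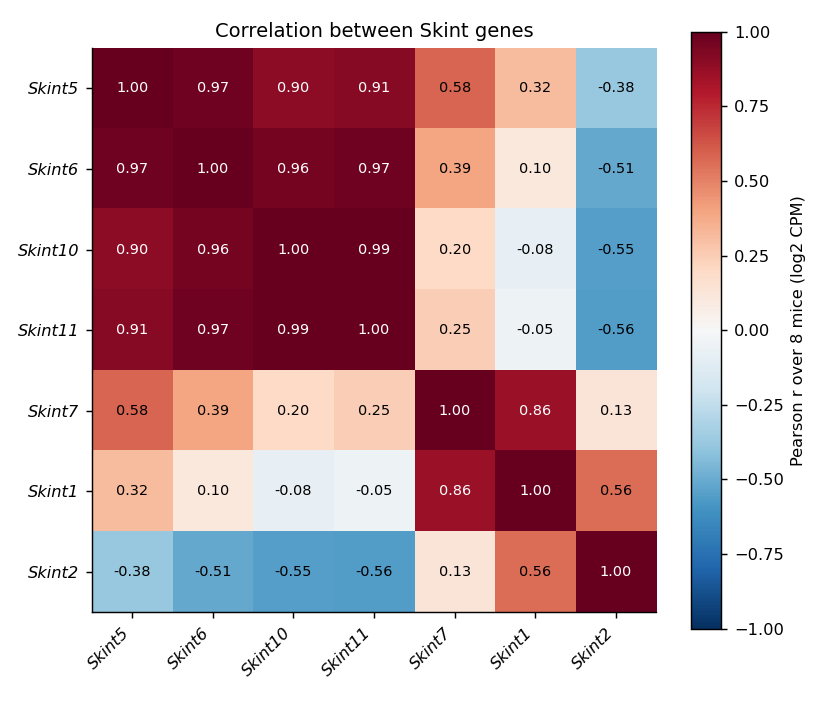
Pearson r of log2 CPM over the 8 mice for each pair of the 7 tested Skint genes, with the value printed in each square and colour from -1 (blue) to 1 (red). The block of Skint5, Skint6, Skint10 and Skint11 is at 0.897 or above, and Skint2 is negative with each of the 4.

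The genes whose pattern was most like the mean standardised level of the 7 members, among 14191 with a mean of at least 1 CPM, were Rora (r = 0.987), Tmppe (0.982), Taz (0.981), Oas1f (0.978) and Card14 (0.977). Rora, a nuclear receptor, ran from 113 CPM in baseline butyrate replicate 3 to 287 CPM in baseline CTL replicate 1. Card14, a signalling scaffold of keratinocytes, ran from 19.1 CPM in the former to 71.9 CPM in lesional butyrate replicate 3. The most opposed were Ptar1 (r = -0.982) and Kif14 (r = -0.98), the latter a kinesin of cell division. This ranking rested in part on baseline butyrate replicate 3. Without it, over 7 libraries, r was 0.962 for Card14 (rank 9), 0.93 for Taz (47), 0.909 for Rora (92), 0.903 for Tmppe (113) and 0.856 for Oas1f (284). It was -0.944 for Ptar1 and -0.897 for Kif14, while Tmem60 was highest at 0.983. The mean of the 7 joins members that did not vary together. A second ranking used the mean of Skint5, Skint6, Skint10 and Skint11, grouped after their values were seen. Over 8 libraries its highest were Kifc3 (r = 0.989), Arhgef37 (0.989), Mrgprb2 (0.987), Hsdl1 (0.986) and Wdr65 (0.985). Its lowest were Homer3 (-0.977) and Slc38a1 (-0.975).

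Among 13 butyrophilin-like relatives, 11 were listed and 4 were tested; Btnl4 and Btnl6 were at 0 counts in all mice. Skint8, the one Skint gene outside the members, was at 17.8 and 13.9 CPM in baseline CTL and 13.8 and 12.7 CPM in lesional CTL skin (log2 -0.26, SE 0.32, edgeR FDR 0.675), and at 18.9 and 10.7 CPM in lesional butyrate skin. Btnl9, a butyrophilin-like gene outside the cluster, was called lower in lesional CTL skin, at 8.54 and 7.11 CPM against 19.2 and 17.4 CPM at baseline (log2 -1.22, SE 0.28, edgeR FDR 0.0927). It was at 15.7 and 15.0 CPM in lesional butyrate skin, above both lesional CTL mice (log2 0.97, SE 0.28, edgeR FDR 0.838). The call was lost when 6 of the 8 mice were left out in turn (FDR up to 0.528) and without the low-count filter (FDR 0.108).

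The T cells that Skint1 is known for were followed by 15 genes of epidermal gamma-delta T cells, of which 11 were listed and 10 tested. The receptor genes that define them (Trdc, Trdv4, Trgv5 and Trgc1) were not among the genes listed, so that gamma-delta cells could not be told from other T cells here. EdgeR called none of the 10 in any comparison, and 9 of 10 were at higher values in lesional CTL than in baseline CTL skin, with a median log2 fold change of 0.97 against -0.02 over all genes. Cd3d, a signalling chain of the T cell receptor complex and the gene of the list with the largest change, was at 1.44 and 1.5 CPM in baseline CTL and 6.14 and 2.31 CPM in lesional CTL skin (log2 1.51, SE 0.78, edgeR FDR 0.332). Sema4d, a semaphorin with the highest mean of the list, was at 23.0 and 28.9 CPM against 45.3 and 34 CPM (log2 0.61, SE 0.21, edgeR FDR 0.194). Of 6 alpha-beta T cell genes, 4 were called higher in the same comparison, with sums of 51.9 and 26.1 CPM against 5.78 and 5.83 CPM; their part in the shared T cell genes was not tested.

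Of 11 keratinocyte signals to these cells, 10 were tested and none was called in any comparison by edgeR. Cdh1 (E-cadherin), the most abundant, overlapped between lesional and baseline CTL skin (log2 -0.16, SE 0.23, edgeR FDR 0.708). H60b, a ligand of the activating receptor NKG2D with the largest change of the list, was at 8 and 13 counts in baseline CTL, 35 and 40 in lesional CTL, and 10 and 12 in lesional butyrate skin (log2 -1.83, SE 0.86, for butyrate against control in lesional skin, edgeR FDR 1). H60c, the skin-expressed relative of H60b, was picked after its values were seen: it was at 20.9 and 16.9 CPM in baseline CTL, 18.1 and 6.00 in baseline butyrate, 5.71 and 5.91 in lesional CTL, and 3.91 and 3.44 in lesional butyrate skin. It was 3.25-fold lower in lesional CTL than in baseline CTL skin (log2 -1.70, SE 0.49, edgeR FDR 0.149). Unlike Skint5, Skint6, Skint10 and Skint11, its values in lesional butyrate skin lay below those in lesional CTL skin, as in 22.5% of all genes. That difference was not called (log2 -0.66, SE 0.50).

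Of 10 genes of the gamma-delta programme and its effectors, 8 were tested and 1 was called. Il13, a type 2 cytokine, was at 68 and 35 counts in lesional CTL skin against 2 and 0 in baseline CTL skin and was called higher (edgeR FDR 0.0672). As baseline was under 3 counts per library, its fold is given as at least 15.7-fold higher, against that limit. Leaving out any 1 of the CTL or lesional butyrate mice lost this call (FDR up to 0.456). Il17f, the cytokine with the largest change of the list, was at 0 counts in all 4 baseline mice and at 73 and 18 counts in lesional CTL skin. That is at least 14.2-fold higher against the same limit, but Il17f was not called (edgeR FDR 0.156). Which cells made Il13 and Il17f was not tested. Igf1, a growth factor with the highest mean of the list, was not called (log2 0.58, SE 0.31, edgeR FDR 0.349).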

How the data were processed

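Total RNA of whole dorsal skin was made into Illumina TruSeq RNA libraries by the authors, reads were aligned to GRCm38 with STAR 2.5.2 per the labels, and featureCounts gave reads per gene. The deposited values are raw counts of protein-coding genes, 1 column per mouse, in a table described as reverse-stranded counts; the strand setting of the kit is not given in the sources used here. A read counted once per gene carries no molecular identifier, so limits from counts cover counting error only. Depth was 18004136 to 21085544 counts per mouse. The study's design text speaks of 16 samples, of which 8 were analysed here.

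From these counts, genes with low counts were removed with edgeR's filterByExpr (minimum count 10), which left 15163 of 22740, and library sizes were scaled by TMM. Group means of all 4 groups were fitted together with edgeR 4.0.16 (robust quasi-likelihood, R 4.3.3), and a gene was called at a Benjamini-Hochberg FDR under 0.1 and a fold change over 2, as in the study's methods. The study used limma-voom, which was run as an alternative (limma 3.58.1) with DESeq2 1.42.0, other scalings, no filter, the compared mice only, and each mouse left out. The SE of a log2 fold change is its size divided by the square root of the F statistic. The steps were also run on simulated counts. Recovery of changed genes was required only at a spread below that of these mice, so this check does not measure power here. Levels per kb use the merged exon length in the GRCm38 annotation. Upstream windows are from RefSeq.

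The members and gene lists were chosen with earlier results of these data known. Named genes are all members, Skint8, and from each list of relatives, T cells, signals and effectors those called, highest or most changed; H60c was added after its values were seen. Like genes were ranked by Pearson r on log2 CPM with a prior count of 2.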

Additional observations from a re-analysis of the deposited data

How the results depend on the processing

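Of 518 values for the members under the alternatives, 466 kept their direction and side of the threshold, 36 passed it where they had not before, and 16 turned direction. For the list genes named, 207 of 255 were unchanged in this sense, 25 passed, 21 were lost and 2 turned. In lesional CTL against baseline CTL skin, the members called went from 0 to 4 by DESeq2 (with 7.21% of all genes) and to 5 with the compared mice only (with 12.9% of all genes). They also changed with which single mouse was left out. In lesional butyrate against baseline butyrate skin, DESeq2 called 1 (with 4.6% of all genes) and leaving out single mice gave 0 to 4 (19.1% of all genes at 4). Leaving out single mice gave 0 to 6 in baseline butyrate against baseline CTL skin and 0 to 6 for the difference between the butyrate effects. The highest counts came without a baseline butyrate mouse. No alternative called a member in lesional butyrate against lesional CTL skin.

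The log2 fold changes that turned direction did so when single mice were left out, apart from Skint5 in lesional butyrate against baseline butyrate skin, which was also at 0.43 by limma-voom. They are given as ranges over the mice left out. In lesional butyrate against lesional CTL skin, Skint1 ran from -0.054 to 0.54, Skint2 from -0.12 to 0.55 and Skint8 from -0.31 to 0.51, lowest without lesional butyrate replicate 3. In baseline butyrate against baseline CTL skin, Skint5 ran from -2.60 to 0.26, Skint6 from -2.25 to 0.12, Skint10 from -1.75 to 0.098 and Skint11 from -2.34 to 0.14, lowest without baseline butyrate replicate 1 and highest without replicate 3. In lesional butyrate against baseline butyrate skin, highest without baseline butyrate replicate 1 and lowest without replicate 3, Skint5 ran from -1.04 to 1.82, Skint6 from -1.23 to 1.14, Skint7 from -0.059 to 2.14, Skint10 from -1.20 to 0.65 and Skint11 from -1.61 to 0.87. In lesional CTL against baseline CTL skin, Skint7 ran from -0.091 (without baseline CTL replicate 2) to 0.17 and Cdh1 from -0.33 to 0.012 (without baseline CTL replicate 1). For the difference between the butyrate effects, Skint2 ran from -0.61 to 0.059 (without lesional butyrate replicate 4) and Skint7 from -0.093 (without baseline butyrate replicate 3) to 2.11. A group left with 1 mouse is assumed to vary like the others. No paired analysis was possible because no pair of groups has more than 1 replicate number in common. With 2 mice a group, no FDR under 0.1 was reached for a member in lesional butyrate against lesional CTL skin. Correlations without baseline butyrate replicate 3 were added after the data were seen. The cause of these shifts was not tested.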
